A study of Homo sapiens with 56 samples.

Results

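KG-1 cells, an established human acute myeloid leukaemia line, were compared after 12 h in 1 µM CX-5461 and after 12 h in its vehicle, a citric acid and phosphate buffer. The 4 CX-5461 libraries and the 4 vehicle libraries were bulk RNA sequencing libraries, and every gene with a mean of 1 CPM (counts scaled to library size) or more in either group was included. These were 13144 of the 59081 genes in the KG-1 table, and all 13144 were among the 18618 genes tested. The threshold used levels and not differences: DLX3 stood just inside it at 1.00026 CPM and AL671710.1 just outside at 0.999919 CPM in its higher group.

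The series also holds KG-1 cells after 3 h in 1 µM CX-5461 and after 12 h in 1 µM PMR-116, each with its own 4 vehicle libraries, and Mv4;11 cells, another acute myeloid leukaemia line, after 12 h in 1 µM CX-5461 or vehicle, with 3 libraries a group. All cells were grown in RPMI medium with fetal bovine serum. No vehicle library served more than 1 of these comparisons. The labels place KG-1 in batch 2 and Mv4;11 in batch 1, so line and batch cannot be told apart. No label says that replicates came from separate cultures, so p-values measure the spread between these libraries, which may be technical.

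CX-5461 is a small molecule made to block RNA polymerase I, which makes the ribosomal RNA precursor in the nucleolus. It is described as keeping the selectivity factor SL1 off the ribosomal DNA promoter, and it has also been described as a ligand of G-quadruplex DNA and as a poison of topoisomerase II. The libraries were made from polyadenylated RNA, so the ribosomal RNA precursor was not measured.

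Totals of the 8 libraries ran from 45598674 to 72707757 estimated counts, and the lowest correlation of log2 CPM between replicates was 0.986. The markers of the line were in place, with CD34 at 1795 to 2487 CPM, PTPRC at 431 to 508 CPM, CD33 at 84.9 to 99.2 CPM, SPI1 at 112 to 146 CPM, CEBPA at 24.8 to 56.2 CPM and MPO at 7.57 to 12.0 CPM. KIT was near 0, at 0.0199 to 0.200 CPM. Summed over the marker lists of other lineages, lymphocyte markers held 459 to 495 CPM in CX-5461 libraries and 422 to 464 CPM in vehicle libraries. The erythroid and megakaryocyte list held 608 to 803 CPM and 642 to 724 CPM, and the fibroblast, endothelial and epithelial list 307 to 372 CPM and 303 to 363 CPM, with MS4A1, EBF1, DNTT, HBB, ALAS2, EPCAM and KRT5 among the genes at 0 in all 8 libraries.

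After 12 h in CX-5461 most called changes in KG-1 cells were small, and their number depended on the model. The fit used here called 473 genes, and a fit that paired the libraries by replicate number called 1313. Of the gene lists, that of DNA replication held 15 rises among 59 genes and 0 falls, and that of mitosis 21 falls among 69 genes and 0 rises. The RNA polymerase I machinery held 0 calls among 21, near the 2.54% called among all genes tested. The replication count was not stable, at 0 with the 8 libraries alone and 4 without CX-5461 replicate 1. By edgeR's quasi-likelihood test with Benjamini-Hochberg adjustment, 473 of 18618 genes (2.54%) were called at an adjusted p under 0.05, 254 higher (1.36%) and 219 lower (1.18%). Of the 13144 genes included, 253 rose and 212 fell, and in 416 of these 465 the 4 CX-5461 libraries did not overlap the 4 vehicle libraries. Such separation was found in 7.56% of all genes tested. Among the 465 called genes, 81.7% differed by less than 1.5-fold, and 11 by 2-fold or more. As a background, the 4 vehicle libraries set beside the 4 vehicle libraries of PMR-116 at 12 h gave 0 calls by the same test, with 479 genes at an unadjusted p under 0.05.

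The number of calls depended on how the spread was estimated. Replicate numbers were read as pairing the libraries, although replicate 2 correlated at 0.125 with its own number and at 0.188 with another. With the replicate block 1313 of 18618 genes were called, 757 higher and 556 lower, including each of the 473. List counts with the block, given below, are to be read against these larger numbers and not against the 2.54% of the fit used here. With the 8 libraries fitted alone, in place of all KG-1 libraries, 71 were called, 70 of them among the 473. Leaving out 1 library gave 288 to 401 calls, with 288 and 306 without CX-5461 replicate 1 or 2 and 304 and 311 without vehicle replicate 3 or 4.

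**Figure D1:**
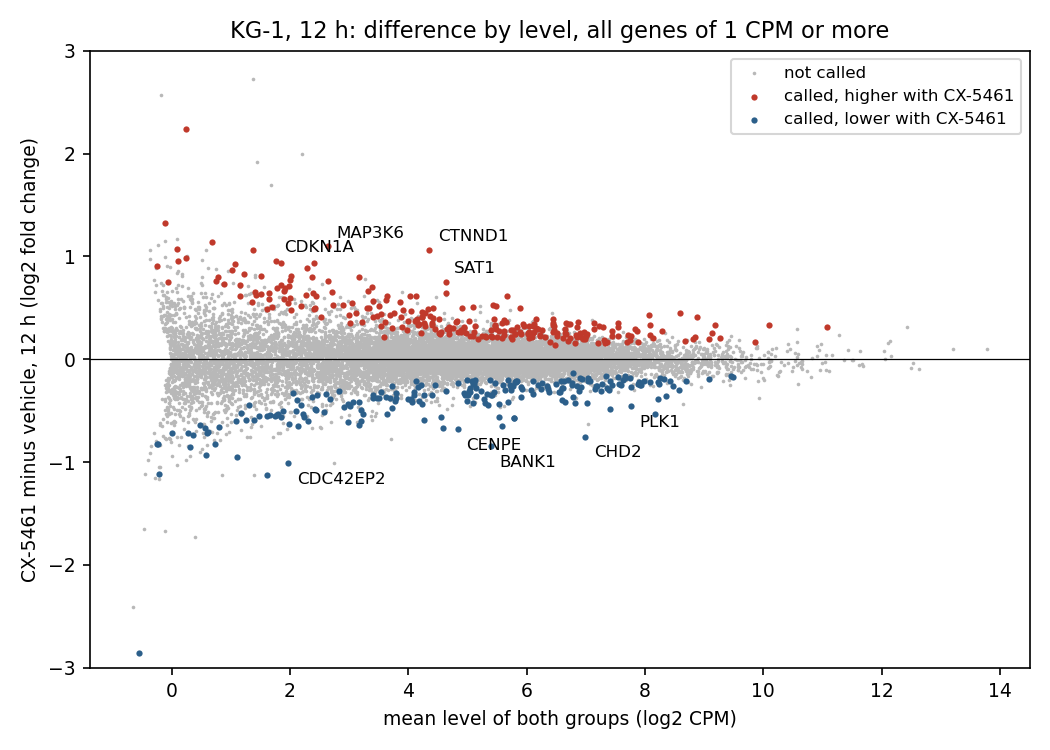
Difference between CX-5461 and vehicle at 12 h (log2 fold change, vertical axis) against the mean level of both groups (log2 CPM, horizontal axis) for the 13144 genes, 1 point a gene. Red points are the 253 called higher and blue points the 212 called lower with CX-5461, most of which lie within 1.5-fold of no change.

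SAT1, the spermidine and spermine acetyltransferase of polyamine breakdown, had the lowest adjusted p of the genes named here. It stood at 32.7, 33.6, 29.3 and 28.8 CPM in CX-5461 libraries and at 18.02, 17.6, 19.6 and 18.5 CPM in vehicle libraries. The groups were far apart, with a log2 fold change of 0.75 ± 0.06 (SE) and an adjusted p of 3.32e-09 by edgeR. SAT1 was also higher after 3 h in CX-5461 (log2 fold change 0.36, adjusted p = 0.000411) and after 12 h in PMR-116 (1.01, adjusted p = 1.61e-12).

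Of the 15 largest rises among called genes at 5 CPM or more whose groups did not overlap, MAP3K6 and CTNND1 were the ones that passed 2-fold. MAP3K6, a stress kinase of the ASK family, had 8.44, 7.14, 10.1 and 8.26 CPM with CX-5461 and 3.42, 3.90, 4.28 and 4.25 CPM with vehicle. CTNND1, which encodes the p120 catenin that stabilises cadherins, had 30.4, 28.2, 22.7 and 29.7 CPM with CX-5461 and 12.9, 15.4, 9.30 and 15.4 CPM with vehicle. Their log2 fold changes were 1.10 ± 0.19 (adjusted p = 0.000929 by edgeR) and 1.07 ± 0.19 (adjusted p = 0.00164). CTNND1 did not move after 3 h in CX-5461 beyond its error (−0.08, adjusted p = 0.904) or after 12 h in PMR-116 (0.15, adjusted p = 0.720), although neither difference from the 12 h CX-5461 effect was called. Its vehicle level varied, averaging 13.3 CPM here, 17.9 CPM beside PMR-116 at 12 h and 21.1 CPM at 3 h. Those other vehicle libraries reached 24.8 and 27.1 CPM and so overlapped the CX-5461 libraries at 12 h.

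Of the other large rises, FFAR2, a receptor for short-chain fatty acids on leukocytes, averaged 6.94 ± 1.02 CPM with CX-5461 and 3.62 ± 0.342 CPM with vehicle (SD, n = 4 each). GZMA, a granule protease, averaged 11.4 ± 1.46 CPM with CX-5461 and 6.55 ± 0.940 CPM with vehicle. MMP9, a secreted gelatinase, averaged 6.38 ± 0.411 CPM with CX-5461 and 4.08 ± 0.820 CPM with vehicle. The rule that chose these genes required that no CX-5461 library overlapped a vehicle library. PTX3, a soluble pattern recognition protein, had a log2 fold change of 0.77 ± 0.17, and SH2D2A, a T cell adaptor, one of 0.65 ± 0.09. Further members of the 15 were DTX4, PELI3, SPAG1, AL365181.3, SLC12A4 and TUBB3, at log2 fold changes of 0.65 to 0.88. The calls of DTX4 and PTX3 were lost in 3 and 2 of the 8 fits that left out 1 library, with adjusted p-values up to 0.0803 and 0.0530.

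The 15 largest falls, chosen in the same way, ran from −1.01 to −0.56 on the log2 scale. CDC42EP2, an effector of the small GTPase CDC42, had 1.68, 3.30, 3.36 and 2.11 CPM in CX-5461 libraries and 4.29, 7.28, 5.63 and 3.81 CPM in vehicle libraries. Its log2 fold change was −1.01 ± 0.28 (adjusted p = 0.0438 by edgeR), and the call was lost without CX-5461 replicate 1 or 4 or vehicle replicate 2 or 3, with adjusted p-values up to 0.177. BANK1, a scaffold protein of antigen receptor signalling, had 23.7, 28.8, 31.9 and 36.1 CPM with CX-5461 and 45.9, 52.8, 57.9 and 59.3 CPM with vehicle. CHD2, a chromatin remodelling ATPase, had 100.5, 97.2, 76.0 and 106 CPM with CX-5461 and 149, 169.6, 156 and 165 CPM with vehicle. By the rule of choice neither gene overlapped between the groups. The log2 fold changes were −0.84 ± 0.13 (adjusted p = 0.000156 by edgeR) and −0.75 ± 0.11 (adjusted p = 9.72e-05).

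PCF11, a subunit of the cleavage complex that ends transcription, averaged 44.6 ± 5.11 CPM with CX-5461 and 66.3 ± 10.3 CPM with vehicle (SD, n = 4 each). GPSM2, which helps orient the mitotic spindle, averaged 19.04 ± 1.64 CPM with CX-5461 and 28.2 ± 1.76 CPM with vehicle. The mitotic genes CENPE, KIF20A and DLGAP5 were also among the 15. The others were TTC28, SMTN, H2BC12, NEK3, AC012615.1, LINC01089 and IL18BP, at log2 fold changes of −0.67 to −0.56. NEK3 and LINC01089 each lost the call in 7 of the 8 fits that left out 1 library.

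**Figure D2:**
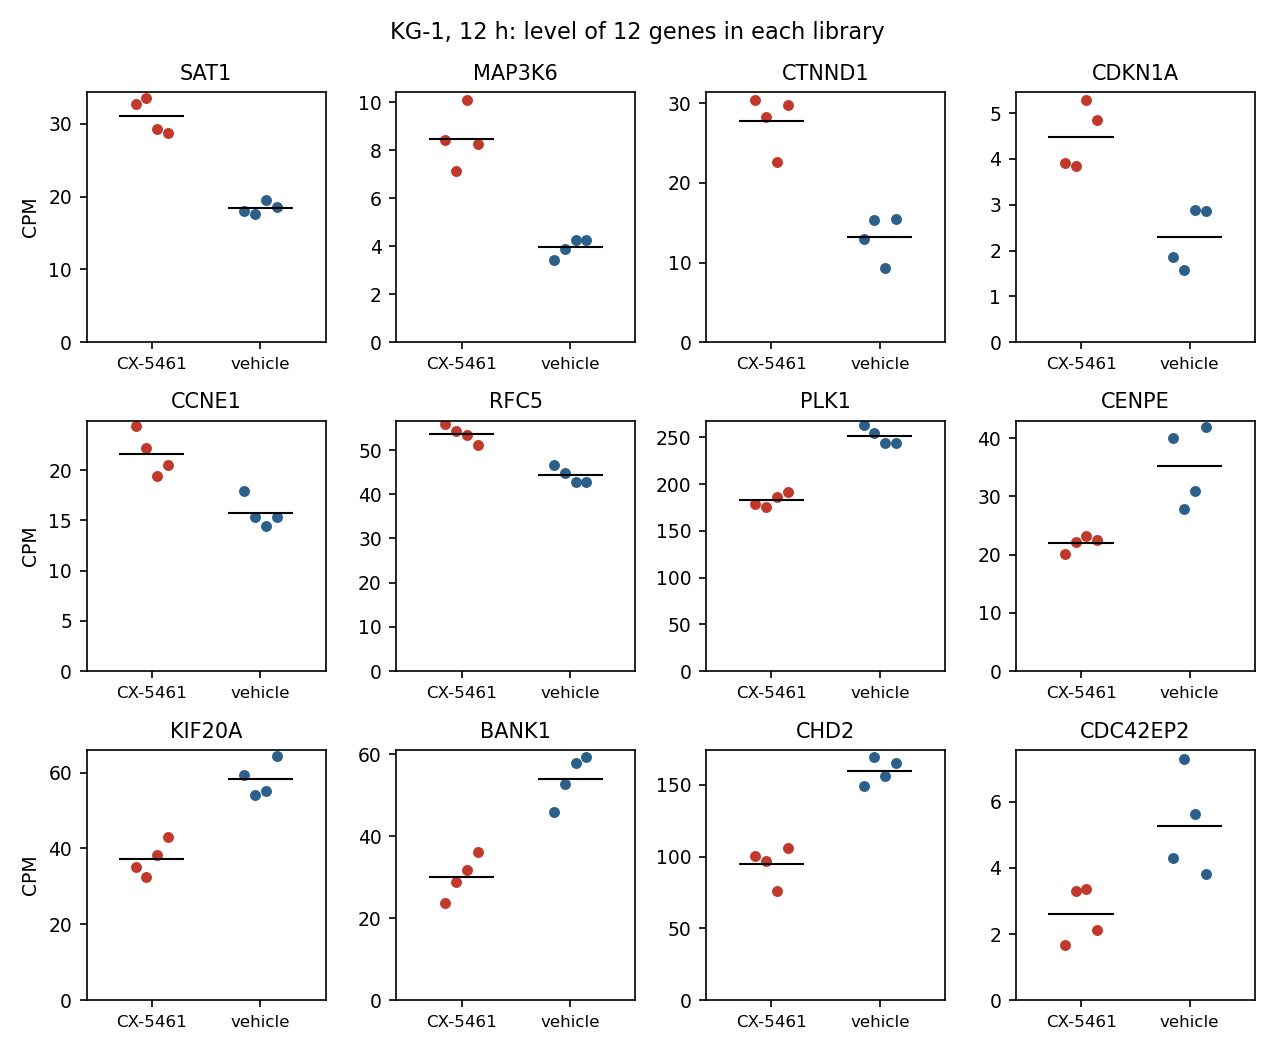
Level of 12 genes in every library (CPM, vertical axis from 0), with CX-5461 libraries in red on the left, vehicle libraries in blue on the right, and the mean of each group as a line. In each panel the 4 CX-5461 values lie entirely above or entirely below the 4 vehicle values. The 12 genes are examples, and such separation was found in 7.56% of all genes tested.

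Of the gene lists, that of G2 and mitosis held the most calls. Genes that act from the G2 phase through mitosis are transcribed late in the cell cycle, largely through the DREAM and MuvB complexes, which bind a short element named CHR in their promoters. Of 69 such genes tested, 21 fell and 0 rose, against 1.18% of all genes tested that fell. The median log2 fold change of the list was −0.15, against 0.00 over all genes, and 55 of 69 were below 0. In 29 the CX-5461 and vehicle libraries did not overlap, all lower, against 677 of 18618 genes tested.

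KIF20A, a kinesin of the central spindle, had 35.1, 32.5, 38.3 and 42.9 CPM in CX-5461 libraries and 59.5, 54.0, 55.1 and 64.4 CPM in vehicle libraries. PLK1, the polo kinase of mitotic entry, had 179, 175, 186 and 192 CPM with CX-5461 and 263, 255, 244 and 245 CPM with vehicle. CDC20, the activator of the anaphase-promoting complex, had 141, 134, 141 and 149 CPM with CX-5461 and 212, 199, 193 and 186 CPM with vehicle. In each of these genes the highest CX-5461 library lay below the lowest vehicle library by a wide margin. Their log2 fold changes were −0.65 ± 0.07 for KIF20A (adjusted p = 2.18e-06 by edgeR), −0.46 ± 0.05 for PLK1 (5.63e-06) and −0.48 ± 0.06 for CDC20 (2.36e-05).

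CCNB2, a B-type cyclin, averaged 96.5 ± 4.49 CPM with CX-5461 and 125 ± 5.64 CPM with vehicle (SD, n = 4 each). CENPE, the kinesin that moves chromosomes to the metaphase plate, had 20.1, 22.1, 23.1 and 22.4 CPM with CX-5461 and a wider range with vehicle, 40.1, 27.8, 30.99 and 41.8 CPM. DLGAP5, a spindle assembly factor, had 37.9, 35.7, 35.4 and 40.98 CPM with CX-5461 and 58.9, 44.2, 56.7 and 61.2 CPM with vehicle. The further called mitotic genes, named here because they were called, were CENPA, CCNF, KIF4A, PTTG1, CENPF, CCNB1, CDC25B, KIF2C, CDCA3, KIF14, ECT2, MKI67, PIF1, NEK2 and G2E3. Summed over the 69 genes, the list held 7306 to 7871 CPM in CX-5461 libraries and 7960 to 8659 CPM in vehicle libraries, without overlap. Not every mitotic gene moved: TOP2A, the topoisomerase II of dividing cells, averaged 516 ± 24.8 CPM with CX-5461 and 508 ± 43.04 CPM with vehicle, at 0.02 ± 0.06.

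Among genes of DNA replication and of entry into S phase the calls were rises. These are classic targets of the E2F transcription factors, which the retinoblastoma protein holds back until late G1. Of 59 tested, 15 rose and 0 fell, against 1.36% of all genes that rose. The median log2 fold change was 0.13, and 56 of 59 were above 0. In 14 the groups did not overlap, all higher, against 731 of 18618 genes tested.

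CCNE1, the cyclin that drives entry into S phase, had 24.4, 22.2, 19.4 and 20.5 CPM in CX-5461 libraries and 17.96, 15.4, 14.4 and 15.3 CPM in vehicle libraries. RFC5, a subunit of the clamp loader, had 55.9, 54.4, 53.5 and 51.0 CPM with CX-5461 and 46.6, 44.9, 42.8 and 42.7 CPM with vehicle. TK1, thymidine kinase, had 163, 169, 150.2 and 141 CPM with CX-5461 and 134, 127, 126 and 121 CPM with vehicle. These 3 genes separated the groups by a narrow margin, with replicate 1 the highest vehicle library in each. Their log2 fold changes were 0.46 ± 0.09 for CCNE1 (adjusted p = 0.00283 by edgeR), 0.28 ± 0.05 for RFC5 (0.000713) and 0.30 ± 0.05 for TK1 (0.0017).

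MCM10, which helps assemble the replicative helicase, averaged 114 ± 11.0 CPM with CX-5461 and 89.4 ± 8.80 CPM with vehicle (SD, n = 4 each), and its groups overlapped. PCNA, the sliding clamp, averaged 302 ± 33.4 CPM with CX-5461 and 240.3 ± 20.4 CPM with vehicle. RRM2, the small subunit of ribonucleotide reductase, averaged 207 ± 19.7 CPM with CX-5461 and 167 ± 8.22 CPM with vehicle. The further called genes, named because they were called, were E2F8, CDC6, FEN1, E2F2, CDC45, GINS4, MCM3, E2F1 and CDC25A, at log2 fold changes of 0.17 to 0.34. Summed over the 59 genes the groups overlapped, at 11187 to 12705 CPM in CX-5461 libraries and 10520 to 11764 CPM in vehicle libraries, with replicate 1 the highest in both. The count of 15 rested on several libraries: it was 4 without CX-5461 replicate 1, 8 without CX-5461 replicate 2 or vehicle replicate 3, 21 with the replicate block and 0 with the 8 libraries fitted alone. The mitotic count of 21 was 15 to 24 when 1 library was left out, 31 with the replicate block and 6 with the 8 libraries alone.

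**Figure D3:**
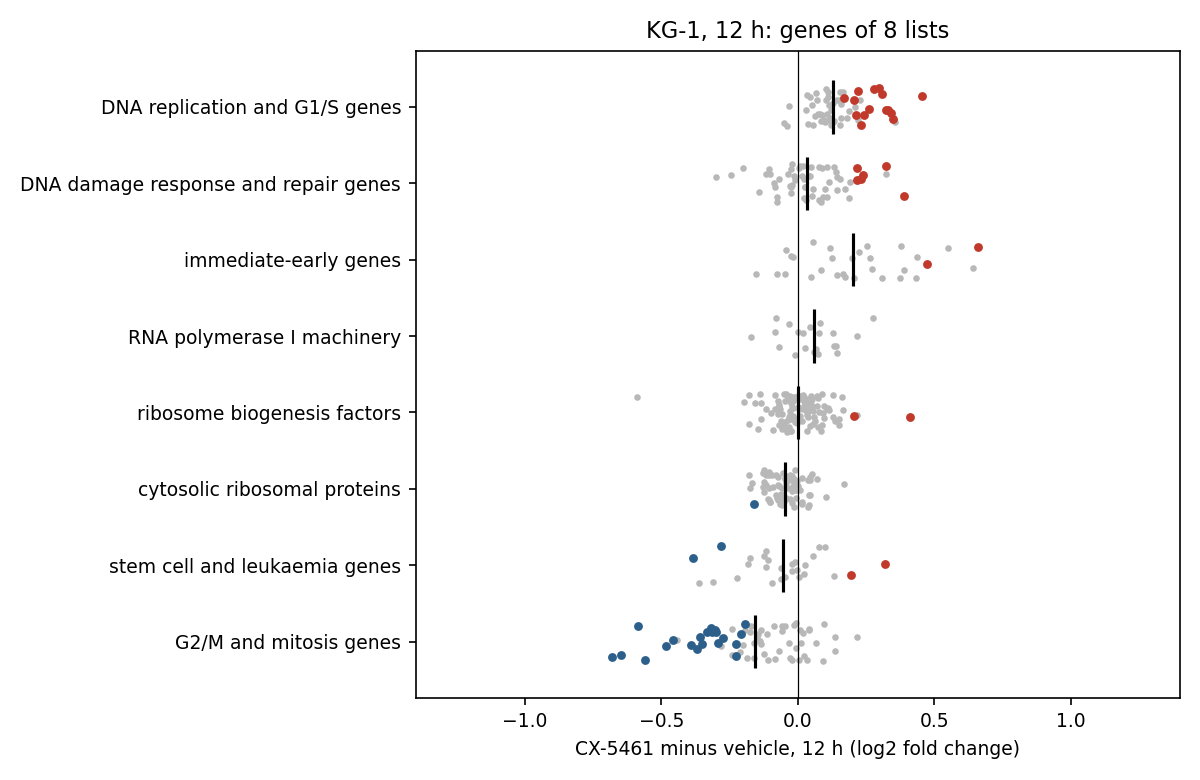
Log2 fold change of CX-5461 against vehicle at 12 h (horizontal axis) for the genes of 8 lists that reached 1 CPM, 1 point a gene, with each list's median as a vertical bar. Red points were called higher and blue points lower, and the replication genes lie mostly to the right of 0 and the mitotic genes mostly to the left.

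The promoters of these gene groups were read from the RefSeq promoter table (GRCh38.p14), which gives 250 bases before and 50 bases after the start of each gene and held 27305 genes. It held 57 of the 69 mitotic genes and 48 of the 59 replication genes. The letters TTTGAA (the CHR element), on either strand, were in 39 of the 57 mitotic promoters (68.4%) and in 1 of the 48 replication promoters (2.08%). They were in 15.4% of all promoters in the table and in 9.93% of those of the genes included here, of which 9631 had a promoter in it. An E2F-type word (TTTCCCGC, TTTCGCGC, TTTGGCGC or TTTGCCGC, on either strand) was in 22 of the 48 replication promoters (45.8%) and in 4 of the 57 mitotic promoters (7.02%). Such a word was in 3.33% of all promoters and in 5.63% of those of the genes included. Of the called genes, 14 of 21 mitotic promoters (66.7%) held the CHR letters and 6 of 13 replication promoters (46.2%) an E2F word. These shares were near those of the whole lists. Such matches are a description of the letters and not of binding.

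To show the element, 3 called mitotic promoters with a CHR match are printed from 150 bases before the start to 20 bases after it, 5′ to 3′ on the gene's strand, in lower case with the match in capitals. They are those of PLK1 (chr16:23678739-23678908, plus strand), CDC20 (chr1:43358831-43359000, plus strand) and CCNB2 (chr15:59104996-59105165, plus strand), whose RNA fell as described above.
PLK1: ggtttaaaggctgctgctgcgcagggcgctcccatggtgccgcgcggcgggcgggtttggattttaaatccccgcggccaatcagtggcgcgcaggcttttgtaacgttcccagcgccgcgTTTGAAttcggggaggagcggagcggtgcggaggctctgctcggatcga
CDC20: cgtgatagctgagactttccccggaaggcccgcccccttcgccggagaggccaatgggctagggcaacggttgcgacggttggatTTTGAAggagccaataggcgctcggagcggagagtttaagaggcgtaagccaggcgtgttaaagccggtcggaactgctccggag
CCNB2: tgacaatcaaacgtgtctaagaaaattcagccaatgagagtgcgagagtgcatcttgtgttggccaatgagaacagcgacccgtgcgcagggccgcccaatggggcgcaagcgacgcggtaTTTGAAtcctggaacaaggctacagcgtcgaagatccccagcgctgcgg

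The same stretch is printed for 3 called replication genes with an E2F word, in capitals, PCNA (chr20:5126603-5126772, minus strand), CDC6 (chr17:40287729-40287898, plus strand) and E2F2 (chr1:23531214-23531383, minus strand). In PCNA the word stands on the opposite strand and so reads as its reverse complement.
PCNA: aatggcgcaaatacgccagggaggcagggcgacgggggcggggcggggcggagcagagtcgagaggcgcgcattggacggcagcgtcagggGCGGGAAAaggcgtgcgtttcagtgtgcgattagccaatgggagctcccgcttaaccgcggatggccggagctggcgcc
CDC6: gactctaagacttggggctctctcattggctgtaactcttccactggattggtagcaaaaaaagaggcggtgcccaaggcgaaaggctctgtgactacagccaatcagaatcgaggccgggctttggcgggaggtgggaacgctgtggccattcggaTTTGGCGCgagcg
E2F2: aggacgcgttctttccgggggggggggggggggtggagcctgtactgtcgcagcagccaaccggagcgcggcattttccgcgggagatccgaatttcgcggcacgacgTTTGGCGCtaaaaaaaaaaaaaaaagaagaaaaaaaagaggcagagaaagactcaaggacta

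Replication-dependent histone genes, whose messenger RNAs end in a stem-loop without a poly(A) tail, were low in these poly(A) libraries. Of 50 tested, 3 fell (H2BC12, H2AC11 and H2BC4) and 0 rose, against 1.18% of all genes tested that fell. H2BC4 lost its call in 7 of the 8 fits that left out 1 library. H2BC12 had 7.20, 8.13, 6.33 and 6.54 CPM with CX-5461 and 11.5, 13.2, 9.91 and 9.35 CPM with vehicle, at −0.64 ± 0.10 (adjusted p = 0.000167 by edgeR). Near-identical histone copies can share reads, so the values of single copies are uncertain. H1-10, a linker histone outside that list, averaged 86.3 ± 1.55 CPM with CX-5461 and 115 ± 7.74 CPM with vehicle.

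Genes of the DNA damage response and repair were read next, since CX-5461 has been described as damaging DNA. Of 60 tested, 6 rose (EXO1, XRCC1, UBE2T, RAD54L, BRCA1 and RECQL4) and 0 fell, against 1.36% of all genes tested that rose. The median log2 fold change was 0.04, with 39 genes above 0 and 21 below. Whether these 6 rises were separate from those of the replication genes was not tested. EXO1, the exonuclease of resection and mismatch repair, had 87.2, 84.0, 77.3 and 77.7 CPM with CX-5461 and 64.3, 62.5, 58.2 and 63.8 CPM with vehicle, at 0.39 ± 0.05 (adjusted p = 6.91e-05 by edgeR). BRCA1 averaged 131 ± 2.63 CPM with CX-5461 and 112 ± 8.44 CPM with vehicle. The count was 2 without CX-5461 replicate 1 or 2, 3 without vehicle replicate 2 or 3, and 1 with the 8 libraries alone. Topoisomerases and linked repair enzymes gave 0 calls by edgeR among 14, against 2.54% of all genes tested, with 1 gene at an unadjusted p under 0.05. TOP2B, the beta form of topoisomerase II, had a log2 fold change of −0.12 ± 0.06.

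CDKN1A, which encodes an inhibitor of cyclin-dependent kinases also named p21, had 3.91, 3.84, 5.27 and 4.86 CPM in CX-5461 libraries and 1.86, 1.58, 2.88 and 2.85 CPM in vehicle libraries. Its groups did not overlap, at 0.96 ± 0.24 (adjusted p = 0.0224 by edgeR), but the call was lost without CX-5461 replicate 3 or 4 or vehicle replicate 1 or 2, with adjusted p-values up to 0.0978. MDM2, a ubiquitin ligase, averaged 45.2 ± 1.44 CPM with CX-5461 and 46.9 ± 3.13 CPM with vehicle, at −0.05 ± 0.06 (adjusted p = 0.803).

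The machinery that CX-5461 is aimed at held no called gene, which for 21 genes is near the 2.54% called among all genes tested. Among 21 genes of RNA polymerase I and its factors, 0 rose and 0 fell by edgeR, 2 had an unadjusted p under 0.05 and 1 was called by DESeq2. In these libraries 1 of the 21 genes separated the groups, against 7.56% of all genes tested, and the median log2 fold change was 0.06. POLR1A, the largest catalytic subunit, had 219, 184, 203 and 207 CPM with CX-5461 and 232, 197, 186 and 205 CPM with vehicle. POLR1B, the other catalytic subunit, averaged 116 ± 7.69 CPM with CX-5461 and 111 ± 6.57 CPM with vehicle. The initiation factors RRN3 and UBTF had log2 fold changes of −0.08 ± 0.05 and −0.03 ± 0.06, and the SL1 subunits TAF1B and TAF1C 0.07 ± 0.13 and 0.14 ± 0.11. With the replicate block, which called 1313 of all 18618 genes tested, 2 of the 21 genes were called higher.

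Lists of ribosome production held few calls, at shares to be read against the 2.54% of all genes. Of 115 ribosome biogenesis factors 2 rose, and the median log2 fold change of the list was 0.00. NOLC1, a nucleolar phosphoprotein that binds snoRNP particles, had 598, 540.5, 480.1 and 522 CPM with CX-5461 and 454, 405, 366 and 386 CPM with vehicle, at 0.41 ± 0.07 (adjusted p = 0.000882 by edgeR). NVL, an ATPase of large subunit assembly, averaged 70.6 ± 1.51 CPM with CX-5461 and 61.2 ± 1.82 CPM with vehicle. Of 78 cytosolic ribosomal protein genes 1 fell, RPS27A, at −0.16 ± 0.04, a call lost in 3 of the 8 fits that left out 1 library. In that list 62 of 78 genes were below 0, 11 were lower at an unadjusted p under 0.05, and 9 fell with the replicate block. The block called 1313 of all 18618 genes tested. Of 77 mitochondrial ribosomal protein genes 3 rose (MRPL45, MRPS6 and MRPL16) and 1 fell (MRPL24), and the calls of MRPL16 and MRPL24 were lost in 6 and 3 of the 8 fits. POLR3D, a subunit of RNA polymerase III, rose by 0.23 ± 0.06, a call lost in each of the 8 fits that left out 1 library, and snoRNA host genes gave 2 falls of 30, SNHG10 and DANCR, lost in 2 and 3 of the 8 fits.

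MYC, the transcription factor that drives ribosome production, had 866, 1034, 815 and 798 CPM with CX-5461 and 933, 1146, 846 and 832 CPM with vehicle. Replicate 2 was the highest in both groups, and the log2 fold change was −0.10 ± 0.09 (adjusted p = 0.741 by edgeR). Calls among the 58 genes of the MYC network are to be read against the 2.54% of all genes tested. CDK4 and CDC25A rose, the latter also counted among the replication genes above, and MXD3, an antagonist of MYC that pairs with MAX, fell. These calls were lost in 3 (CDK4), 5 (CDC25A) and 5 (MXD3) of the 8 fits that left out 1 library. CDK4, the kinase of early G1, averaged 189.8 ± 14.4 CPM with CX-5461 and 157 ± 9.81 CPM with vehicle.

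Stress and signalling lists held 0 to 3 calls each, against 2.54% of all genes tested, 1.36% higher and 1.18% lower. In lists of this size 0 or 1 call is near that share. XPOT, the exporter of transfer RNA and a target of ATF4, averaged 96.0 ± 3.75 CPM with CX-5461 and 129 ± 5.24 CPM with vehicle, the 1 call among 48 integrated stress response genes. That list had 38 of 48 genes below 0 and a median of −0.11. In 14 of the 48 the groups did not overlap, all lower, against 677 of 18618 genes tested. With the replicate block 1 gene of the list rose and 3 fell. DUSP5 and IER3, which are induced early after growth factor signals, rose among 33 immediate-early genes, a list with a median of 0.22, and 10 of the 33 rose with the replicate block. IER3 lost its call in 1 of the 8 fits that left out 1 library. HMOX1, the haem oxygenase, averaged 3.84 ± 0.574 CPM with CX-5461 and 2.45 ± 0.287 CPM with vehicle, and rose together with TKT among 24 NRF2 and iron genes, where TKT lost its call in 4 of the 8 fits and 4 genes rose with the replicate block. CSF1 was the 1 call among 30 inflammatory genes, of which 26 were above 0, and its call was lost in 4 of the 8 fits. GLA was the 1 call among 39 lysosome genes, of which 30 were above 0. With the replicate block, which called 1313 of all 18618 genes tested, 7 inflammatory genes rose, and 11 lysosome genes rose and 1 fell. RRM2, also counted among the replication genes above, was the 1 call among 29 genes of nucleotide synthesis and lost it in 1 of the 8 fits. Interferon-stimulated genes gave 1 rise (TAP1) and 2 falls (IFI35 and DDX60) of 48, and 4 rises and 5 falls with the replicate block. TAP1 and DDX60 lost the call in 7 and 5 of the 8 fits, and IFI35 in 0. The lists of unfolded protein response, heat shock, cholesterol synthesis, glycolysis, BCL2 family, pause regulators and mitochondrially encoded genes had 0 calls by edgeR, with 0 (BCL2 family) to 7 genes at an unadjusted p under 0.05. With the replicate block 5 unfolded protein response genes rose and 1 fell, 4 glycolysis genes and 2 heat shock genes rose, 1 cholesterol synthesis gene rose and 2 fell, and 1 mitochondrially encoded gene fell. Of 27 glycolysis genes 24 were above 0, at a median of 0.16.

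Markers of leukaemic cell state moved in both directions. CD34, the stem and progenitor cell antigen, had 2487, 2427, 2278 and 2378 CPM with CX-5461 and 2049.6, 1926, 1795 and 1902 CPM with vehicle, without overlap. It rose by 0.32 ± 0.05 on the log2 scale (adjusted p = 0.000557 by edgeR). RUNX1 and BCL11A, transcription factors of blood development, averaged 147 ± 2.26 and 13.9 ± 1.13 CPM with CX-5461 and 179 ± 9.84 and 18.2 ± 2.19 CPM with vehicle. Of 31 stem cell and leukaemia genes tested, CD34 and CD44 rose and these 2 fell, against 1.36% and 1.18% of all genes tested. CD44 lost its call in each of the 8 fits that left out 1 library, and 2 rose and 6 fell with the replicate block. Of 31 genes of monocyte and granulocyte maturation, 4 rose (TYROBP, FCER1G, FCGR2A and FCGR3A) and 0 fell, against 1.36% of all genes tested that rose. The list was divided, with 17 genes above 0, 14 below and a median of 0.02. FCER1G, FCGR2A and FCGR3A lost the call in 2, 5 and 7 of the 8 fits that left out 1 library. TYROBP, the signalling adaptor of many myeloid receptors, had 15.995, 17.2, 14.1 and 15.5 CPM with CX-5461 and 11.3, 12.4, 11.7 and 10.6 CPM with vehicle, and FCER1G, the shared Fc receptor chain, had 51.7 to 59.7 CPM with CX-5461 and 41.4 to 46.6 CPM with vehicle. The count of 4 was 1 without CX-5461 replicate 2 and 2 without any 1 vehicle library. Beside these, GP9 and NKG7, whose call was lost in each of the 8 fits, were called higher among markers of other lineages, and PDGFRB, which stayed under 1 CPM in both groups, lower.

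Among the longest genes the calls were falls. By the spans of GENCODE v29, which matched 97.5% of the genes tested, 547 tested genes spanned over 300 kb, of which 0 rose and 19 fell by edgeR, and 2 rose and 29 fell by DESeq2. The 19 falls were 3.47% of the class, where by edgeR 1.36% of all genes tested rose and 1.18% fell. In the shortest class, up to 10 kb, 74 of 5417 rose and 67 fell. Among the 340 genes over 300 kb that reached 1 CPM the median log2 fold change was −0.08 and 66.5% were below 0, against 43.03% of those up to 10 kb. The classes from 10 to 300 kb lay between, with 46.2% below 0 at 30 to 100 kb and 52.97% at 100 to 300 kb.

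The longest called genes, named because of their length after the values were seen, were TBC1D5, RUNX1, RABGAP1L, TTC28, ARHGAP15 and BANK1. TBC1D5, a regulator of endosome traffic with a span of 1288 kb, had 99.9, 125, 106 and 111 CPM with CX-5461 and 143, 159, 141 and 150.04 CPM with vehicle. STAG1, a cohesin subunit picked as an example from the shorter genes of the class, with a span of 416 kb, had 111, 105, 97.1 and 111 CPM with CX-5461 and 129, 120.4, 115 and 140.1 CPM with vehicle. In both the groups were apart, at −0.42 ± 0.08 (adjusted p = 0.00348 by edgeR) and −0.25 ± 0.06 (adjusted p = 0.0159). The falls over 300 kb were 12 without CX-5461 replicate 2 or vehicle replicate 4, 36 with the replicate block and 3 with the 8 libraries alone. The rises were 3 with the replicate block and 3 without vehicle replicate 2. In KG-1 the same class had 0 rises and 25 falls after 3 h in CX-5461 and 5 rises and 71 falls after 12 h in PMR-116, but in Mv4;11 after 12 h in CX-5461 it had 77 rises and 33 falls among 541. Of all genes tested, 1.85% rose and 1.58% fell after 3 h in CX-5461, and 4.73% and 4.74% after 12 h in PMR-116. In Mv4;11 13% of all genes tested rose and 11.5% fell, so the 77 rises were near the share over all genes.

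**Figure D4:**
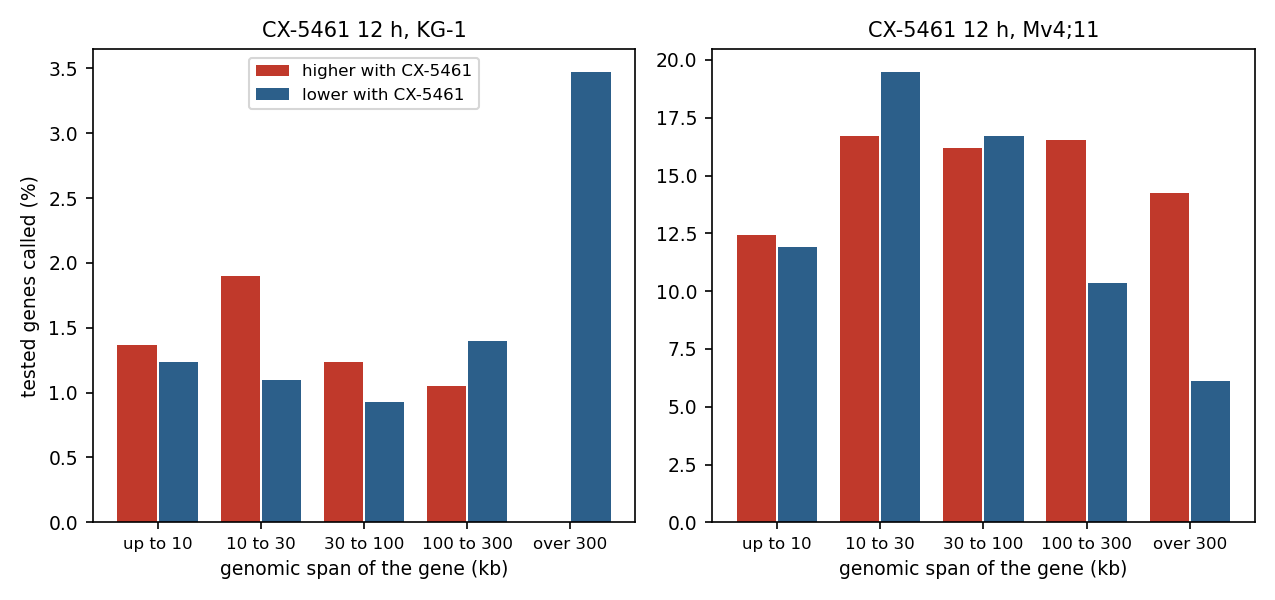
Share of tested genes called higher (red) and lower (blue) with CX-5461 at 12 h (percent, vertical axis from 0, scaled separately) by the genomic span of the gene (kb, horizontal axis), in KG-1 on the left and in Mv4;11 on the right. In KG-1 the class over 300 kb holds 0 rises and 19 falls, and in Mv4;11 it holds 77 rises and 33 falls. Of all genes tested 1.36% rose and 1.18% fell in KG-1, and 13% and 11.5% in Mv4;11.

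The 12 h response was then set beside the 3 h response to the same compound. After 3 h, 640 of 18618 genes (3.44%) were called, 345 higher (1.85%) and 295 lower (1.58%). Of the 253 genes that rose at 12 h, 214 were also above 0 at 3 h (84.6%, against 52.3% of all genes included), and 44 were called, which is 17.4% of the 12 h rises and 13.1% of the 3 h rises. Of the 212 that fell, 180 were below 0 at 3 h (84.9%, against 47.7%), and 43 were called, or 20.3% of the 12 h falls and 15.2% of the 3 h falls. The difference of effects itself was called for 49 genes (0.263%), 27 higher (0.145%) and 22 lower (0.118%) at 12 h.

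HEXIM1, the inhibitor of the elongation kinase P-TEFb, was among these. At 3 h it stood at 64.3, 62.1, 56.3 and 55.9 CPM with CX-5461 and at 42.8, 38.96, 38.6 and 38.7 CPM with vehicle. At 12 h it had 36.3, 38.9, 33.9 and 34.2 CPM with CX-5461 and 34.2, 33.4, 31.7 and 33.9 CPM with vehicle. The rise was thus large at 3 h and within the overlap of the groups at 12 h, and the effects differed by −0.48. Of the 69 mitotic genes 17 were already lower at 3 h and 0 higher, at a median of −0.14, against 1.58% of all genes tested that fell. The difference was called for 2 of them. These were PLK1 and CDC20, which fell more at 12 h, by differences of −0.34 and −0.43, beside 3 h effects of −0.12 and −0.06 that were not called. Of the 59 replication genes 8 were higher at 3 h and 0 lower, against 1.85% of all genes tested that rose, and the difference was called for 0. KCNJ14, a potassium channel gene, was called in opposite directions, higher at 3 h (0.99 ± 0.11) and lower at 12 h (−0.59 ± 0.11). TIGD5, FCGR1B and CNR2 were called lower at 3 h and had 12 h effects of 0.14, 0.53 and 0.10 that were not called. FAM222A was called higher at 3 h, while SMTN and PCF11 were called lower at 12 h and had 3 h effects of 0.30 and 0.19 that were not called. The difference was lost in 8 (FCGR1B), 11 (CNR2) and 5 (PCF11) of the 16 fits that left out 1 library. FCGR1B shares long stretches of sequence with its paralogs, so its reads could be split among them.

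PMR-116, another inhibitor of RNA polymerase I transcription, was given at the same dose and time. With it 1762 of 18618 genes (9.46%) were called, 880 higher (4.73%) and 882 lower (4.74%). Of the 253 genes higher with CX-5461, 242 were above 0 with PMR-116 (95.7%, against 51.8% of all genes included) and 159 were called, which is 62.8% of the CX-5461 rises and 19.2% of those of PMR-116. Of the 212 lower, 197 were below 0 (92.9%, against 48.2%) and 120 were called, or 56.6% and 14.2%. The difference between the compounds was called for 9 genes (0.0483%), 5 higher (0.0269%) and 4 lower (0.0215%) with CX-5461, of which 7 reached 5 CPM, and for 179 with the replicate block. A difference that misses the threshold does not show that the compounds act alike.

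The mitotic list had medians of opposite sign under the compounds. PMR-116 had 11 mitotic genes higher and 4 lower of 69, where CX-5461 had 0 higher and 21 lower, and the medians were 0.07 and −0.15. Summed over the list, PMR-116 libraries held 8756 to 8815 CPM and their own vehicle libraries 8205 to 8506 CPM. The difference between the compounds was called for 1 mitotic gene, DLGAP5, at −0.70 ± 0.13 (adjusted p = 0.0369 by edgeR, lost in 10 of the 16 fits that left out 1 library). PLK1, CCNB2 and CENPA missed the threshold at adjusted p-values of 0.0652, 0.0660 and 0.0650. H1-10 and SPPL2A were also lower with CX-5461 relative to PMR-116, by −0.39 ± 0.07 and −0.59 ± 0.10, and TSPAN33, SYNE3, PAK1 and SLA2 higher, by 0.36 to 0.47. Each of these 7 calls was lost in 6 to 14 of the 16 fits that left out 1 library.

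**Figure D5:**
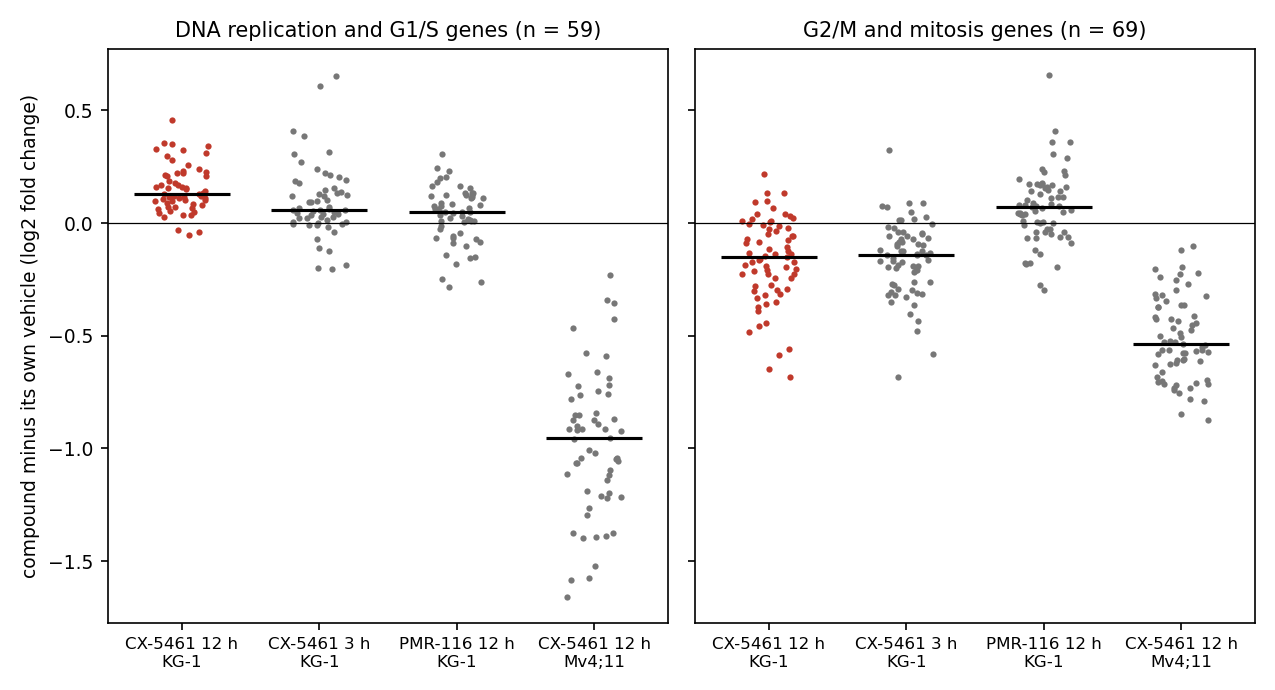
Log2 fold change of each compound against its own vehicle (vertical axis) for 59 replication genes on the left and 69 mitotic genes on the right, 1 point a gene, with medians as lines, in 4 comparisons. CX-5461 at 12 h in KG-1 is in red, with medians of 0.13 and −0.15, and both lists lie lowest in Mv4;11.

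In Mv4;11 the same dose and time of CX-5461 called 5819 of 23759 genes (24.5%) in a joint fit of both lines, 3078 higher (13%) and 2741 lower (11.5%). The difference of effects, KG-1 minus Mv4;11, was called for 3854 genes (16.2%), 2149 higher (9.04%) and 1705 lower (7.18%). Of the 253 genes that rose in KG-1, 150 were above 0 in Mv4;11 (59.3%, against 50.9% of all genes included), 90 were called in the same direction and 55 in the opposite one. Of the 212 that fell, 139 were below 0 (65.6%, against 49.1%), 77 were called lower and 30 higher. Of the replication genes, 59 of 59 fell in Mv4;11, at a median of −0.95, where 15 had risen in KG-1, and the difference was called for 59 of 59. Mitotic genes fell in both, with 62 of 69 called lower in Mv4;11 at a median of −0.54.

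MDM2 and CDKN1A differed between the lines by −1.66 and −1.30. MDM2 rose in Mv4;11 by 1.62 on the log2 scale, against −0.05 in KG-1. Of 21 RNA polymerase I genes 13 fell in Mv4;11, POLR1B among them at −0.46, and 82 of 115 ribosome biogenesis factors fell there. The largest differences fell on genes near 0 in one line, where fitted folds depend on the prior count. ADM, which encodes the vasodilator peptide adrenomedullin, averaged 24.1 CPM with CX-5461 and 20.8 CPM with vehicle in KG-1 on the scale of the joint fit, and in Mv4;11 it was at 0 with CX-5461 and averaged 0.587 CPM with vehicle. UNC13A, a factor of vesicle release, averaged 0.140 CPM with CX-5461 and 0.185 CPM with vehicle in KG-1, and 17.4 CPM with CX-5461 and 0.558 CPM with vehicle in Mv4;11. SAT1 rose in both lines and CHD2 fell in both, at 1.38 and −0.74 in Mv4;11.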

How the data were processed

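Poly(A)-selected stranded RNA sequencing libraries were used. Per the submitters' processing notes, reads were quantified with Salmon 1.5.2 on GRCh38.p13, and DESeq2 was used. Neither strand setting nor annotation release is given in the sources used here, so reads of overlapping and antisense genes may be mixed. The deposited values are estimated counts per gene, made by the authors with Salmon per the submitters' processing notes, and were rounded to whole numbers here. Of the columns for Mv4;11, 24 matched no labelled sample and were not used.

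All KG-1 libraries were fitted together with edgeR 4.0.16 (R 4.3.3, limma 3.58.1): a filter on low counts (filterByExpr, minimum 10 in a library and 15 in total), TMM scaling, the quasi-likelihood test, and Benjamini-Hochberg adjustment over all genes tested, called at 0.05. Library totals ran from 31010072 to 72707757 in KG-1. The lines were compared in a joint fit. CPM values were TMM-scaled. SE is the log2 fold change over the root of F.

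Deviations of the same-numbered CX-5461 and vehicle libraries from their group means correlated at 0.457, 0.125, 0.480 and 0.201 over 12875 genes, so the numbers were read as pairing them. Replicate 2 correlated more with another number, at 0.188. The members and gene lists were chosen with earlier results of these data known. Named genes were the 15 largest called changes in each direction at 5 CPM or more without overlap of the groups, up to 4 called genes a list and direction, up to 4 genes a difference and direction, and a few preset genes. Genes outside this rule are said to be named for being called or long. The alternatives were library totals in place of TMM, DESeq2 1.42.0, no filter, a filter at 1 CPM, the 8 libraries alone, a replicate block, and each library left out. Scripts were tested on simulated data. Some genes and 1 gene list are not reported here.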

Additional observations from a re-analysis of the deposited data

Results flagged for a closer look

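Among 188 groups of 4 libraries of the named genes, 10 held a library far from the other 3, where chance flags about 1 in 20 groups. The high ones with CX-5461 were replicate 1 for SH2D2A (34.8 CPM) and replicate 3 for PDGFRB (0.0199 CPM, the others at 0), and the low one was replicate 3 for GPSM2 (16.6 CPM). Among vehicle libraries, replicate 1 was high for SPAG1 (4.20 CPM), CDC25A (91.7 CPM) and RRM2 (179 CPM). Vehicle replicate 2 was low for TUBB3 (4.68 CPM) and RAD54L (46.1 CPM) and high for TAP1 (85.3 CPM), and vehicle replicate 4 was high for CD44 (514 CPM).

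The effect of CX-5461 at 12 h differed from that at 3 h by edgeR for 49 genes. The differences on the log2 scale were 1.33 for FCGR1B, 1.12 for AL365181.3, 1.02 for TIGD5, 0.89 for CNR2, 0.70 for SH2D2A and 0.39 for SAT1. They were −1.58 for KCNJ14, −1.13 for FAM222A, −0.95 for SMTN, −0.76 for PCF11, −0.74 for IL18BP and −0.48 for HEXIM1.

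The effect of CX-5461 differed from that of PMR-116 at 12 h for 9 genes. Those at 5 CPM or more were SYNE3 (0.47), TSPAN33 (0.46), PAK1 (0.43), SLA2 (0.36), DLGAP5 (−0.70), SPPL2A (−0.59) and H1-10 (−0.39), as log2 differences.

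The effect of CX-5461 at 12 h in KG-1 differed from that in Mv4;11 for 3854 genes, with line and batch not told apart. The largest differences at 5 CPM or more were ADM (7.98), RASL10B (6.96), TMEM150C (5.29), FEV (5.13), ZEB1-AS1 (−5.93), UNC13A (−5.38), P2RY14 (−5.36) and PDE6B (−5.33). In 7 of these 8 an Mv4;11 group was at 0, so the fitted values are no bound. Without 1 Mv4;11 library RASL10B went down to 2.52 (vehicle replicate 2), TMEM150C to 3.59 (vehicle replicate 1) and PDE6B to −3.85 (CX-5461 replicate 1), none of them called. FEV lost the call in 7 and P2RY14 in 1 of the 14 fits that left out 1 library, each with 1 change of sign. Of the other named genes, MAP3K6 (1.29), TUBB3 (1.03), DTX4 (0.94), SPAG1 (0.88), PELI3 (0.85), POLR1B (0.53), MYC (0.43) and TOP2A (0.27) had the higher effect in KG-1. H2BC12 (−2.22), MDM2 (−1.66), CDKN1A (−1.30), TTC28 (−0.76), IL18BP (−0.71), LINC01089 (−0.65), SMTN (−0.65), SAT1 (−0.61), GPSM2 (−0.44) and TOP2B (−0.37) had the lower.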

How the results depend on the processing

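The count of 473 calls (254 higher, 219 lower) kept within 1.5 times with library totals in place of TMM, at 615. It was 803 with DESeq2 (430 and 373), 268 without the filter (164 and 104), 71 with the 8 libraries alone (42 and 29), and 1313 with the replicate block (757 and 556). With the filter at 1 CPM it was 685, of which 341 were lower. Leaving out 1 library gave 288 to 401 calls (137 to 225 higher, 143 to 178 lower). Calls of 2-fold or more, 19 in the fit of all KG-1 libraries, were 12 with the filter at 1 CPM, 9 with the 8 libraries alone, 40 with the replicate block and 12 to 22 when 1 library was left out. The differences between 12 h and 3 h, 49 in number (27 higher, 22 lower), were 83 with library totals (48 and 35), 195 with DESeq2 (83 and 112), 23 without the filter (15 and 8), 402 with the replicate block (177 and 225) and 22 to 50 (10 to 24 and 11 to 26) when 1 library was left out. The differences between CX-5461 and PMR-116, 9 in number (5 and 4), were 26 (14 and 12), 91 (56 and 35), 3 (1 and 2) and 179 (117 and 62) under the same 4 settings, and 0 to 13 (0 to 9 and 0 to 6) when 1 library was left out. The differences between the lines, 3854 in number (2149 and 1705), were 3157 to 4583 (1810 to 3377 and 1088 to 1654) when 1 library was left out. Of single genes, the log2 fold change changed sign when 1 library was left out for POLR1A (−0.058 to 0.054; 0.030 without CX-5461 replicate 2), TAF1B (−0.021 to 0.13), MYC (−0.19 to 0.0079) and TOP2A (−0.026 to 0.071; −0.016 without CX-5461 replicate 4), none of them called. The line differences of FEV (−0.050 to 5.68) and P2RY14 (−5.96 to 0.0064) changed sign when 1 Mv4;11 library was left out. The cause of these changes was not tested. Of 82 called named genes, 30 were also called with the 8 libraries alone and 82 with the replicate block.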
